A study of Homo sapiens with 4 samples.

Results

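KAT2B, a lysine acetyltransferase also known as PCAF, was examined together with its paralog KAT2A and 8 further acetyltransferases in U87MG cells, an established human glioblastoma line. The 10 genes were listed by family and matched to the probe sets whose single gene symbol names them. KAT2B itself was selected on its decrease on these same arrays, so its values are given as a description and carry no test. Each of the 10 genes had 1 such probe set, 10 of the 19158 probe sets with a single symbol and of the 32321 on the array.

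U87MG cells were transfected with a control siRNA or with an siRNA against CASP2, which encodes caspase-2, and total RNA was hybridized to Affymetrix Human Gene 1.0 ST arrays. There were 2 arrays per group, which the labels call biological replicates, and both groups received an oligo with a lipid reagent. The methods name 2 silencing oligos, each with its own control and supplier, and describe 1 control as a mutated form of the caspase-2 oligo. The paper brings in the second pair with the qRT-PCR, and does not state which pair the arrays carried. Each group carries 1 treatment label in 1 cell line, with no second oligo design to compare. The labels give neither the time between transfection and lysis nor whether the replicates came from separate cultures, and p-values measure only the spread between these arrays.

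Lysine acetyltransferases move an acetyl group from acetyl-CoA to lysines of histones and other proteins. On histone tails this neutralizes a positive charge and creates a docking site for bromodomain proteins, and it is typically found at active promoters and enhancers. KAT2A and KAT2B are alternative catalytic subunits of the SAGA and ATAC coactivator complexes. EP300 and CREBBP form a second paralogous pair of large coactivators. KAT5, KAT6A, KAT6B, KAT7 and KAT8 belong to the MYST family, while HAT1 acetylates newly made histone H4 before its deposition on DNA.

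The promoters of the KAT2 paralogs are shown to set the gene that was lower beside its closest relative. Each runs from 250 bases before to 50 bases after the annotated start, from RefSeq in build GRCh38.p14. The KAT2B window lies at chr3:20040196-20040495 on the plus strand and the KAT2A window at chr17:42121318-42121617 on the minus strand. Capitals mark every GGGCGG or its reverse complement CCGCCC, the core of a GC box, and every CCAAT or TATAAA motif on either strand.
KAT2B: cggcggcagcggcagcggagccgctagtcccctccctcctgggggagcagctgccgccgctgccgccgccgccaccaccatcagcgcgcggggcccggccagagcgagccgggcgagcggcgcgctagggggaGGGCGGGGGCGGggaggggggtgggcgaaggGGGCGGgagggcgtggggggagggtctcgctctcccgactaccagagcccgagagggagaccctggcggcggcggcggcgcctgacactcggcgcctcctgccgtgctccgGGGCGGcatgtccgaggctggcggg
KAT2A: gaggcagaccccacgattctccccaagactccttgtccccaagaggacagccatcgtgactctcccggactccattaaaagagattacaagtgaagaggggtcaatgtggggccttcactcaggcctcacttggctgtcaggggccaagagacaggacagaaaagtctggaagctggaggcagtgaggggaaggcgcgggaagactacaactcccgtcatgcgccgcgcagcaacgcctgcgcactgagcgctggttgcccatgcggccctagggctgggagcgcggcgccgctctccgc
KAT2B held 4 GC boxes, 40 CpG dinucleotides and a GC content of 80.3%. KAT2A held 0 GC boxes, 18 CpG dinucleotides and a GC content of 62%. Neither window held CCAAT or TATAAA. Among other members, the CREBBP windows held 3 and 4 GC boxes at 70.3% and 82% GC. The KAT6B windows held 1 to 10 at 58.7% to 80.7% GC. The EP300 window held 0 at 75.3% GC and that of KAT7 0 at 57.7%. Those of HAT1 and KAT5 held 1 each, at 63.3% and 67.3% GC. A GC-rich window with GC boxes was thus not particular to KAT2B. Over all 35116 promoter windows of the same length, 45% held a GC box, 34.6% held CCAAT and 11.5% held TATAAA, with a median of 14 CpG dinucleotides and 58.7% GC. These letters describe the windows only, and the arrays did not measure binding to them.

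Before the members, the silencing itself was examined. The log2 value of CASP2 was 10.74 and 10.69 on the control arrays and 8.79 and 8.52 on the silenced arrays, which left 24.0% of the control level. The arrays carried VIM, CD44, FN1 and CAV1, mesenchymal markers of this line, at log2 values from 11.82 to 13.04. GFAP (6.34 to 6.79), a marker of astrocytic glioma cells, lay above the array medians of 6.18 to 6.28. SOX2 (5.35 to 5.62), a marker of stem-like glioma cells, lay below them on every array. From the same glioma list, TNC lay at 12.09 to 12.15 and S100A6 at 8.78 to 8.92. NES lay at 6.36 to 6.58 and OLIG2 at 5.95 to 6.31. Above the upper quartile of every array lay 6 of 10 glioma markers and 0 of 5 neuron markers. The oligodendrocyte list had 1 of 4 there (CNP, 10.06 to 10.16) and the endothelial list 0 of 5. Yet SNAP25 (8.36 to 8.58, neuron list) and KDR (7.83 to 8.32, endothelial list) lay above the medians. Of the 5 leukocyte markers, 3 lay below the lower quartile of every array, with PTPRC at 3.67 to 3.76, while CD68, a lysosomal protein also found in other cells, lay at 12.20 to 12.30. No marker of these glial, neuronal, oligodendrocyte, leukocyte or endothelial lists passed an unadjusted p of 0.05 in limma. The silenced arrays differed from each other more than the control arrays did, with a standard deviation of the difference across probe sets of 0.348 against 0.205. Among single-symbol probe sets in the upper quartile of all arrays, 76.3% were lower in silenced replicate 2 than in silenced replicate 1.

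KAT2B had a log2 value of 9.66 and 9.73 on the control arrays and of 8.79 and 8.65 on the arrays of CASP2-silenced cells. Both silenced arrays lay below both control arrays, with 0.87 log2 units between the nearest arrays of the groups. The control mean was 9.70 ± 0.046 and the silenced mean 8.72 ± 0.10 (SD, n = 2 each). The groups thus differed by -0.98 on the log2 scale. KAT2B mRNA was at 50.8% of its control level. From the control mean, silenced replicate 1 lay at -0.91 and replicate 2 at -1.05, so the distance between the replicates was small beside that between the groups. All 4 arrays lay above their upper quartile, so KAT2B was not read near background. In a bulk culture, fewer KAT2B-expressing cells and less mRNA per cell cannot be told apart.

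KAT2A, the other catalytic subunit of SAGA and ATAC, had a log2 value of 8.76 and 8.86 on the control arrays and of 8.66 and 8.42 on the silenced arrays. The groups did not overlap, but the nearest arrays were only 0.10 log2 units apart. The silenced replicates lay 0.24 apart, which is close to the whole difference between the groups. The log2 fold change was -0.27 (SE 0.12, 95% interval from limma -0.60 to 0.062), and KAT2A did not pass in limma (unadjusted p = 0.089, adjusted p = 0.9999 over all probe sets). Neither silenced array lay above the controls for KAT2A, and the interval ended at 0.062.

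The change of KAT2B was 0.71 log2 units below that of KAT2A. Taken array by array against the control means, this difference was -0.76 in silenced replicate 1 and -0.66 in replicate 2. It is a description without a test, since KAT2B was chosen for its change. The KAT2A value depended on the silenced arrays. Without silenced replicate 1 it was -0.39 (unadjusted p = 0.018, adjusted p = 0.207 in limma), and without silenced replicate 2 it was -0.15. The first of these fits has 1 silenced array, which is assumed to vary like the control pair, and 19.4% of all probe sets had an unadjusted p under 0.05 in it.

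**Figure D1:**
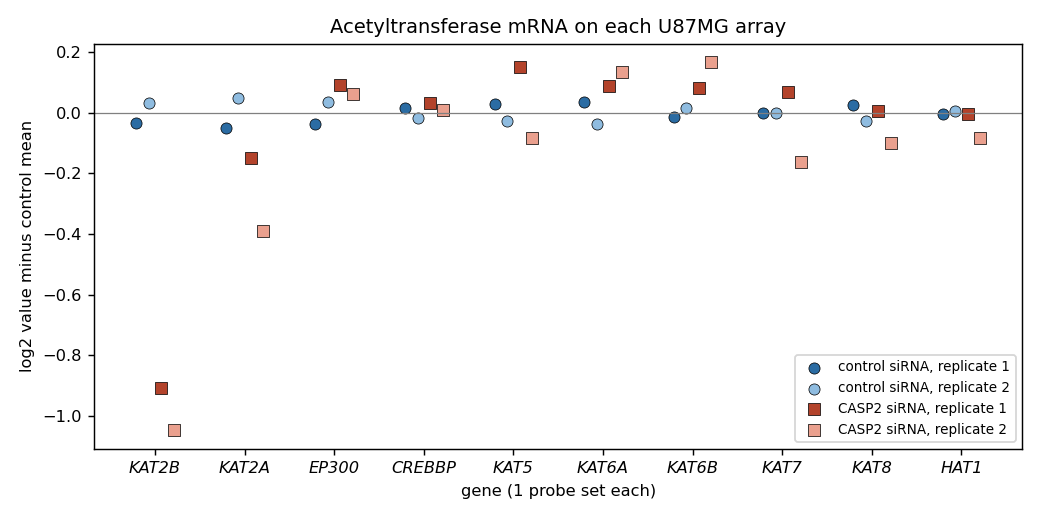
Distance of each array from the control mean in log2 units (y axis) for the 10 acetyltransferases (x axis). Circles show the arrays with control siRNA and squares those with CASP2 siRNA, 1 point per array. The silenced arrays lie at -0.91 and -1.05 for KAT2B and at -0.15 and -0.39 for KAT2A, and within 0.17 of the control mean for the others.

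EP300, the adenovirus E1A-binding coactivator, had a log2 value of 8.91 and 8.98 on the control arrays and of 9.03 and 9.004 on the silenced arrays. Its silenced arrays lay just above both controls, by a log2 fold change of 0.078 (interval -0.17 to 0.32). CREBBP, its paralog and the coactivator of CREB, stood at 9.05 and 9.02 with the control siRNA and at 9.07 and 9.05 with the CASP2 siRNA. Its groups overlapped, and the log2 fold change was 0.022 (interval -0.22 to 0.26). Both intervals run from below to above 0, so they leave room for a small change of either gene in either direction.

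KAT6A, the catalytic subunit of the MOZ complex, had a log2 value of 9.83 and 9.76 on the control arrays and of 9.89 and 9.93 on the silenced arrays. KAT6B, its paralog MORF, stood at 8.57 and 8.60 in the controls and at 8.66 and 8.75 in the silenced cells. In both genes the silenced arrays were the higher ones without overlap, yet the log2 fold changes were only 0.11 (interval -0.13 to 0.36) and 0.12 (interval -0.13 to 0.37). Neither passed in limma (unadjusted p = 0.28 for KAT6A and 0.25 for KAT6B).

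KAT5, the catalytic subunit of the TIP60 complex, had a log2 value of 9.32 and 9.26 on the control arrays and of 9.44 and 9.21 on the silenced arrays. The silenced arrays stood on opposite sides of the controls, and the log2 fold change was 0.034 (interval -0.29 to 0.35). KAT7, known as HBO1 and linked to replication origins, stood at 9.59 and 9.58 in the controls and at 9.66 and 9.42 in the silenced cells. It showed the same split, with a log2 fold change of -0.046 (interval -0.36 to 0.27).

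KAT8, known as MOF and the main enzyme for lysine 16 of histone H4, had a log2 value of 8.23 and 8.18 on the control arrays and of 8.21 and 8.11 on the silenced arrays. Its groups overlapped, with a log2 fold change of -0.046 (interval -0.30 to 0.21). HAT1 stood at 10.61 and 10.62 with the control siRNA and at 10.61 and 10.53 with the CASP2 siRNA. Its groups overlapped too, with a log2 fold change of -0.044 (interval -0.29 to 0.20).

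Of the 9 members other than KAT2B, 5 had a change above 0 and 4 below 0, with a median of 0.022 beside a median of 0.0022 over all probe sets. In 3 of them (EP300, KAT6A and KAT6B) both silenced arrays lay above both controls, in 1 (KAT2A) both lay below, and 5 overlapped. Over all 32321 probe sets, 14.5% were higher and 15.1% lower without overlap. With 9 genes, counts of 3 and 1 say nothing particular to the members beside these shares. None of the 9 passed an unadjusted limma p of 0.05 in either direction, against 1.49% of all probe sets lower and 1.54% higher. None passed after adjustment, and 0% of all probe sets did, CASP2 included.
The methods' t-test also called 0 of the 9 at an unadjusted p of 0.05. With 2 arrays a group, the smallest two-sided p of an exact permutation test is 0.333. In 7 of the 9, silenced replicate 2 was lower than replicate 1, with a median of -0.083 against 0.070 from the control mean. That share was 53.4% over all probe sets and the 76.3% given above among bright ones, which do not include KAT2A, KAT6B and KAT8. Its part in these values was not tested.

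**Figure D2:**
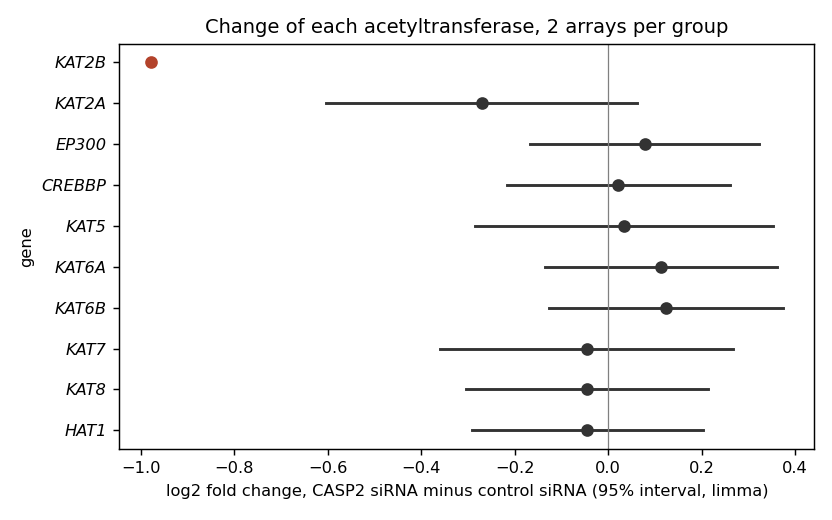
Log2 fold change of the CASP2 siRNA against the control siRNA (x axis) for each acetyltransferase (y axis), 2 arrays per group, with the 95% interval from limma as a line. KAT2B, chosen for its decrease, is drawn without an interval, and the intervals of the 9 others include 0.

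Set against each other member, the change of KAT2B was lower by 0.71 (KAT2A) to 1.10 (KAT6B) log2 units. These distances are a description, since KAT2B was chosen for its decrease on these arrays. The cut-offs of the study, over 1.5-fold and an unadjusted p of 0.05, were here applied to limma and reached by 0.362% of all probe sets in the lower and by 0.331% in the higher direction. With the methods' t-test in place of limma, 37 lower and 35 higher probe sets reached them in place of 117 and 107. These are counts of probe sets in the fits made here and are not the numbers of genes that the paper reports. KAT2B lay past them in limma, by its choice, and 0 of the 9 others did.

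The partners of these enzymes were then examined by list, with 1 probe set per gene. SAGA and ATAC subunits hold KAT2A or KAT2B and decide where they act. Of 25 listed, 23 had a probe set named for the gene alone, and 16 of these had a change below 0 and 7 above, with a median log2 fold change of -0.046. None passed an unadjusted limma p of 0.05. The list mean was 9.39 and 9.44 on the control arrays and 9.43 and 9.31 on silenced replicates 1 and 2. The list mean thus lay below both controls only in silenced replicate 2, in which most bright probe sets were lower than in replicate 1. In 6 of the 23 genes both silenced arrays lay below both controls, and in 1 both lay above. The shares over all probe sets were 15.1% and 14.5%. These counts are not read as a shared decrease, which was not tested. TADA2A, the adaptor that binds the KAT2 enzyme within ATAC, had a log2 value of 7.56 and 7.77 on the control arrays and of 7.45 and 7.15 on the silenced arrays. Its groups did not overlap, and its log2 fold change was -0.37 (interval -0.76 to 0.034, unadjusted p = 0.065 in limma), which became -0.51 without silenced replicate 1 and -0.22 without silenced replicate 2. ATXN7, a subunit of the SAGA deubiquitinase module, stood at 10.04 and 10.06 in the controls and at 10.25 and 10.24 in the silenced cells, a log2 fold change of 0.20 (interval -0.038 to 0.44).

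Subunits of the MYST complexes had 31 of 32 genes measured, with a median log2 fold change of -0.044, and 19 below 0. Their mean was 9.07 and 9.08 on the control arrays and 9.10 and 8.97 on silenced replicates 1 and 2. Here too the mean lay below the controls only in replicate 2. Both silenced arrays lay below both controls in 8 of the 31 genes and above them in 4, beside 15.1% and 14.5% of all probe sets. MORF4L1, a chromodomain protein of the TIP60 complex, had a value of 0.21 (interval -0.067 to 0.48), and DMAP1, another TIP60 subunit, -0.20 (interval -0.47 to 0.074). The 5 partners of HAT1, chaperones that carry histones H3 and H4, had a median of -0.033. Among them ASF1B, a histone chaperone of dividing cells, had -0.13 (interval -0.42 to 0.15) and NASP, which stores free histones, -0.075 (interval -0.44 to 0.29).

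Of 14 other acetyltransferases, 11 were measured, with a median of 0.028. TAF1, the largest subunit of TFIID, had a log2 fold change of -0.20 (interval -0.47 to 0.063). ESCO1, which acetylates cohesin, had 0.22 (interval -0.11 to 0.55). The 18 deacetylases, which remove the acetyl mark, had a median of -0.010 and a range from -0.17 to 0.18. HDAC4, a class II deacetylase, had 0.18 (interval -0.087 to 0.44), and HDAC8, a class I deacetylase of cohesin, -0.14 (interval -0.39 to 0.12).

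Acetyl-lysine readers, bromodomain and YEATS proteins for the most part, had 19 of 20 genes measured and a median of -0.022. CECR2 had a log2 fold change of 0.24 (interval -0.11 to 0.59) but lay at 4.23 to 4.67, around the lower quartile of the arrays, where folds are unsure. BAZ2A, a silencer of ribosomal RNA genes, had 0.14 (interval -0.10 to 0.38). Of the 9 genes of acetyl-CoA supply, with a median of -0.040, ACLY makes cytosolic acetyl-CoA from citrate. It stood at 11.81 and 11.82 in the controls and at 11.61 and 11.57 in the silenced cells, a change of -0.22 (interval -0.46 to 0.015, unadjusted p = 0.060 in limma). ACSS2, which makes acetyl-CoA from acetate, had -0.14 (interval -0.40 to 0.12).

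Over the 7 lists, 116 genes were measured and 0 passed an unadjusted limma p of 0.05 in either direction, beside the shares of 1.49% and 1.54% given above. None passed the adjusted test, and the methods' t-test called 0 as well. The value farthest from 0 among the 116 was that of TADA2A. Leaving out 1 silenced array or the other moved TADA2A and further named partners by over 1.5 times. The ranges were -0.22 to -0.044 for ASF1B, 0.089 to 0.35 for ESCO1, 0.12 to 0.36 for CECR2 and 0.14 to 0.28 for MORF4L1. They were 0.12 to 0.24 for HDAC4, -0.22 to 0.074 for NASP and -0.27 to -0.14 for TAF1. HDAC8 ranged from -0.17 to -0.10 and ACSS2 from -0.18 to -0.10. With 1 control array or the other left out, DMAP1 (-0.26 to -0.13), ACSS2 (-0.19 to -0.088) and HDAC8 (-0.17 to -0.098) moved likewise. So did TADA2A, CECR2 and NASP.

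**Figure D3:**
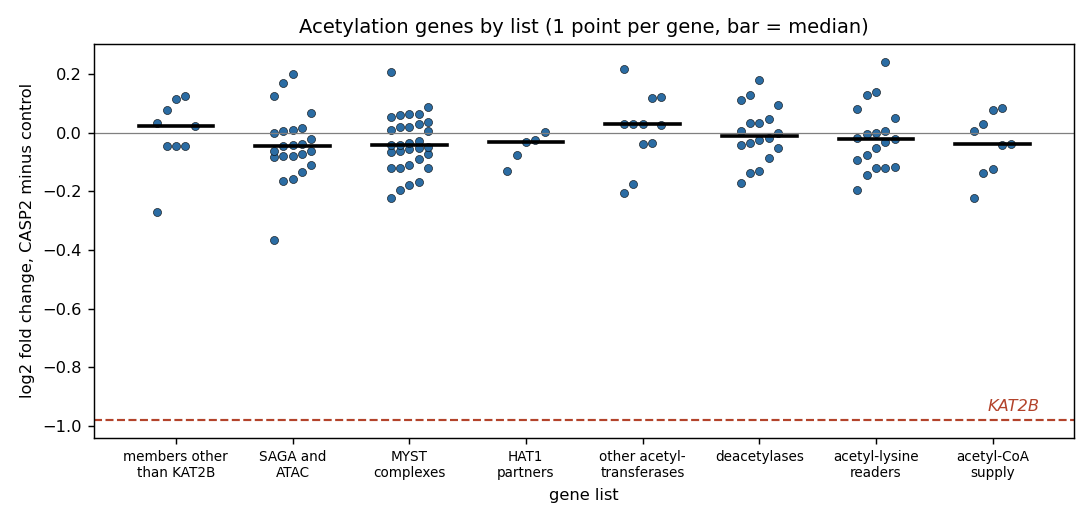
Log2 fold change of the CASP2 siRNA against the control siRNA (y axis) for each measured gene of the acetylation lists (x axis). Each point is 1 gene, bars are list medians and the dashed line is KAT2B. The points lie between -0.37 and 0.24, while KAT2B, chosen for its decrease, lies at -0.98.

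The single-symbol probe sets whose pattern over the 4 arrays was nearest to KAT2B were found by Euclidean distance between log2 values centred on each probe set's mean. The nearest was CDC42BPB, a kinase that binds CDC42, at a distance of 0.072. It stood at 9.75 and 9.77 on the control arrays and at 8.78 and 8.71 on the silenced arrays. TNIP2, an inhibitor of NF-kB signalling, followed at 0.12, with 8.59 and 8.60 in the controls and 7.82 and 7.58 in the silenced cells. UNC93B1, a chaperone of Toll-like receptors, lay at a distance of 0.24. SMIM14, a small membrane protein, lay at 0.30, as did FYCO1, an adaptor between autophagosomes and kinesin.
All 5 were lower in both silenced arrays, as the choice by likeness fixes, with log2 fold changes from -1.01 to -0.68. KAT2A lay at a distance of 0.71, and HAT1, KAT7 and KAT8 each at 0.94. KAT2A held place 362 among the single-symbol probe sets in likeness to KAT2B, so its 4 values were nearer to KAT2B than those of any other member. Over 4 arrays in 2 groups this measure mostly ranks the size of the group difference.

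**Figure D4:**
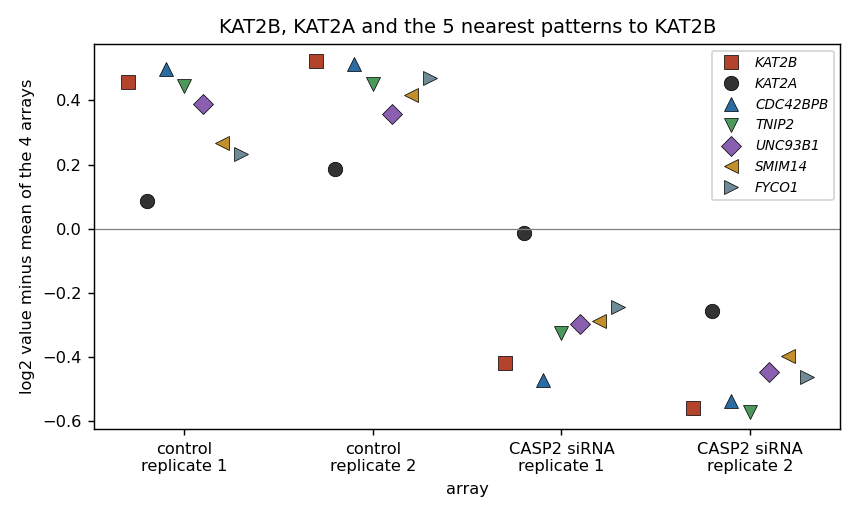
Log2 value minus the mean of the 4 arrays (y axis) on each array (x axis) for KAT2B, KAT2A and the 5 genes nearest to KAT2B. Each point is 1 array and points are shifted sideways by gene. CDC42BPB, at a distance of 0.072, lies closest to KAT2B, and KAT2A, at 0.71, spans a narrower range.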

How the data were processed

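Total RNA from U87MG cells was hybridized to Affymetrix Human Gene 1.0 ST arrays, and the authors normalized them by RMA (version not given in the sources used here). The deposited table holds 1 log2 value per probe set for each array. RMA gives all arrays 1 probe distribution, so a shift of all genes together is largely removed, and folds near background are compressed. Groups came from the treatment label. Each of the 32321 probe sets was fitted with limma 3.58.1 (lmFit, eBayes) in R 4.3.3, as a two-sided test, and p-values were adjusted over the whole table by Benjamini-Hochberg. The code was also run on simulated arrays with independent normal errors of equal variance in both groups, unlike the arrays here. That run checked the recovery of known fold changes and does not bear on small changes. The fit of the real arrays had 2 residual and 2.47 prior degrees of freedom. The number of arrays limits the precision.

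Names came from the platform annotation, with symbols updated by gene ID through RefSeq (GRCh38.p14) for 19128 of 19158 probe sets with 1 symbol. A gene with several probe sets was represented by the brightest. The text names all members, the 2 genes of each partner list with the smallest p, any gene of a list past the thresholds of the study, the 5 patterns nearest to KAT2B, and CASP2. Marker genes come from fixed lists, and those printed were chosen after their values were seen. The members and lists were chosen with earlier results of these data known. Genes with no probe set named for them alone and the qRT-PCR, immunoblots and tissue compendium were not analysed here. Alternatives were the methods' t-test with its minimum standard deviation, eBayes with trend and robust options, a further quantile normalization, median centring, a filter on dim probe sets, all probe sets of a gene, the replicate number as a block, and each array left out in turn.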

Additional observations from a re-analysis of the deposited data

How the results depend on the processing

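When single arrays were left out, the change of KAT2B ranged from -1.05 to -0.91, that of KAT2A from -0.39 to -0.15, and the difference between them from -0.76 to -0.66. Over the other alternatives run for each, KAT2B lay between -0.998 and -0.956, KAT2A between -0.29 and -0.24, and their difference between -0.71 and -0.71. Only quantile normalization and median centring can move these fold changes, and centring cancels from the difference. The methods' t-test, the other eBayes options, the dim filter and the block leave them unchanged by construction. No gene of the members other than KAT2B or of the partner lists passed an adjusted p of 0.05 under any alternative. The count of lower members other than KAT2B at an unadjusted p of 0.05 ranged from 0 to 1 with an array left out, the 1 being KAT2A without silenced replicate 1, and that of higher members stayed at 0. For the partner lists these counts ranged from 0 to 6 lower and from 0 to 6 higher, the 6 lower, TADA2A among them, without silenced replicate 1 and the 6 higher, ESCO1 among them, without silenced replicate 2. They were 1 lower (ACLY) and 2 higher (ATXN7, MORF4L1) with trend and robust options, and 1 lower (ACLY) and 1 higher (ATXN7) after quantile normalization. Signs turned for KAT5 without silenced replicate 1 (-0.083, range -0.083 to 0.15 over the arrays left out), and without silenced replicate 2 for KAT7 (0.070, range -0.16 to 0.070), KAT8 (0.0079, range -0.099 to 0.0079) and NASP (0.074, range -0.22 to 0.074). The replicate numbers share only a label: deviations of same-numbered arrays correlated at 0.020 across probe sets. With the replicate block, KAT2B stayed at -0.98 and KAT2A at -0.27, which the balanced design fixes. In that limma fit 965 probe sets in place of 979 had an unadjusted p under 0.05. Over all probe sets that count was 6257 without silenced replicate 1, 3511 without silenced replicate 2, 477 and 354 without either control array, and 100 by the methods' t-test. Each group then holds 1 or 2 arrays, which limits every p.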
